A study of Sus scrofa with 12 samples.

Results

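The SLC2A genes encode the GLUT family of facilitative sugar transporters, and 9 of them (SLC2A1, SLC2A3, SLC2A4, SLC2A5, SLC2A6, SLC2A8, SLC2A10, SLC2A12 and SLC2A13) were chosen by symbol and looked up among the counted Ensembl genes of pig muscle. The table held 8 of the 9, out of 20341 genes with at least 1 count, and 7 of these 8 were abundant enough to be tested among 14262 genes. SLC2A1 carried no counted identifier and was not analysed here, and SLC2A6 had too few counts for the test. RNA of the Semimembranosus, a hindlimb muscle that goes into ham, was sequenced from 12 purebred Italian Large White pigs kept in one environment on the same diet. The study gives final live weight only as an average over its tested pigs. The high IMF group was pigs 1 to 6 and the low IMF group pigs 7 to 12, IMF being intramuscular fat, and the pigs were picked as extremes of IMF in a larger population. By the labels each group held 3 gilts and 3 barrows, aged 234 to 244 days in the high IMF group and 229 to 249 days in the low IMF group, and no animal carried an engineered allele or received an agent.

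GLUT proteins let hexoses cross a membrane down their gradient, and the family members differ in substrate, affinity and place in the cell. In muscle fibres GLUT4, the product of SLC2A4, waits in storage vesicles and is brought to the surface by insulin or contraction, which makes it the main gate of glucose uptake after a meal. GLUT1 and GLUT3 (SLC2A3) sit at the surface without such a signal, GLUT3 being the high-affinity form of neurons, white blood cells and platelets, while GLUT5 (SLC2A5) carries fructose.

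The sequences just upstream of SLC2A3 and SLC2A5 are shown because these were the pair of family members with the largest group differences. RefSeq places SLC2A3 at chr5:62963635-63041955 on the minus strand of Sscrofa11.1, with 2 transcripts that begin far apart, and SLC2A5 at chr6:69507829-69535794 on the minus strand. Each line gives the 250 bases before an annotated start, 5′ to 3′ on the gene's strand, with capitals marking motif matches. The windows lie at chr5:63041956-63042205 for the far start of SLC2A3, chr5:62975584-62975833 for its near start and chr6:69535795-69536044 for SLC2A5.
SLC2A3 far start: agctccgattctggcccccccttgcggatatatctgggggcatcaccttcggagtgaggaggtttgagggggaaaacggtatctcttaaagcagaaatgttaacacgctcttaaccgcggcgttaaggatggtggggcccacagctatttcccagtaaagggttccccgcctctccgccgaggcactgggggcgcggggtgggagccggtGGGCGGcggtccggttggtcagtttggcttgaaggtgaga
SLC2A3 near start: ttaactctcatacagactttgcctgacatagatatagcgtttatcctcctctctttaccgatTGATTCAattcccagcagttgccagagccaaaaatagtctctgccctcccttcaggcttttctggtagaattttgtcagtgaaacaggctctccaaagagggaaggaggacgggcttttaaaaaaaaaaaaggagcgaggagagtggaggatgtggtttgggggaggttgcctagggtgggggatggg
SLC2A5: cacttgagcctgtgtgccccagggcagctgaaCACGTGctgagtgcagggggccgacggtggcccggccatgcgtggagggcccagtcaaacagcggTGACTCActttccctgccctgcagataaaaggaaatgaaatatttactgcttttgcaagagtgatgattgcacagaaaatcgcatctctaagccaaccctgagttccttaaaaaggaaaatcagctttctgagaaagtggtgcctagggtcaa
Both strands were searched for ACGTG (the core of a hypoxia response element), TGANTCA (an AP-1 site), GGGCGG (named GC box) and TATAAA (named TATA box). The far start of SLC2A3 had a GGGCGG from base -40 to base -35, and its near start had a TGATTCA from base -188 to base -182. SLC2A5 had a TGACTCA from base -153 to base -147 and, inside a CACGTG, 2 overlapping ACGTG matches on opposite strands between bases -218 and -213. Of 19278 promoters of the same length, 46.0% held GGGCGG, 18.8% held ACGTG, 9.69% held TATAAA and 5.25% held TGANTCA. GC content was 60.0% at the far start of SLC2A3, 47.2% at its near start and 52.0% upstream of SLC2A5. A match describes letters only, and the counts do not tell which start of SLC2A3 was in use.

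The libraries held 131048805 to 178013997 counts. These totals exceed the trimmed reads that the study lists per sample, so that counts are not each an independent read, and counting error is larger than the counts alone imply. Counts of EIF1AY and KDM5D, genes of the Y chromosome, were at most 6 or at least 3734, and in 6 of the 12 pigs they were those of the other labelled sex, 2 in the high and 4 in the low IMF group. Each group still held 3 pigs with Y counts. Whether the sex labels or the order of the libraries are at fault was not tested, and in the latter case the IMF group of these pigs would be in doubt as well. Every group comparison below takes the groups as labelled, and values from the other 6 pigs, 4 high and 2 low IMF, stand beside the results that they move most. The tissue label was borne out by muscle genes: the summed level of 4 fast fibre markers was 17640 to 28711 CPM, that is, counts scaled to a common library size (TMM-normalized).

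SLC2A4 was the most abundant of the 8 counted members in each of the 12 pigs, a ranking that leaves out SLC2A1, which was not measured. On the scale of CPM per kilobase of RefSeq exons, which allows levels of different genes to be compared, SLC2A4 averaged 43.0 ± 8.38 (SD, n = 12). SLC2A3 followed at 3.84 ± 3.12, then SLC2A12 (GLUT12, a further insulin-responsive transporter of muscle) at 3.61 ± 0.801 and SLC2A5 at 1.10 ± 1.14. SLC2A13, which encodes the proton-coupled myo-inositol transporter HMIT, averaged 0.475, SLC2A8, an intracellular GLUT, 0.330, and SLC2A10, the GLUT lost in arterial tortuosity syndrome, 0.186. The gap below SLC2A4 was wide: its level was 3.59 times that of SLC2A3 in the closest pig and 17.0 times in the median pig. The order of SLC2A3 and SLC2A12 was not settled, since SLC2A3 was the higher of the pair in only 5 of 12 pigs. SLC2A12 stood above SLC2A5 in 12 of 12 pigs, SLC2A5 above SLC2A13 in 11, SLC2A13 above SLC2A8 in 11 and SLC2A8 above SLC2A10 in 12. The RefSeq model of SLC2A4 is partial, which raises its level on this scale by an unknown amount.

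**Figure D1:**
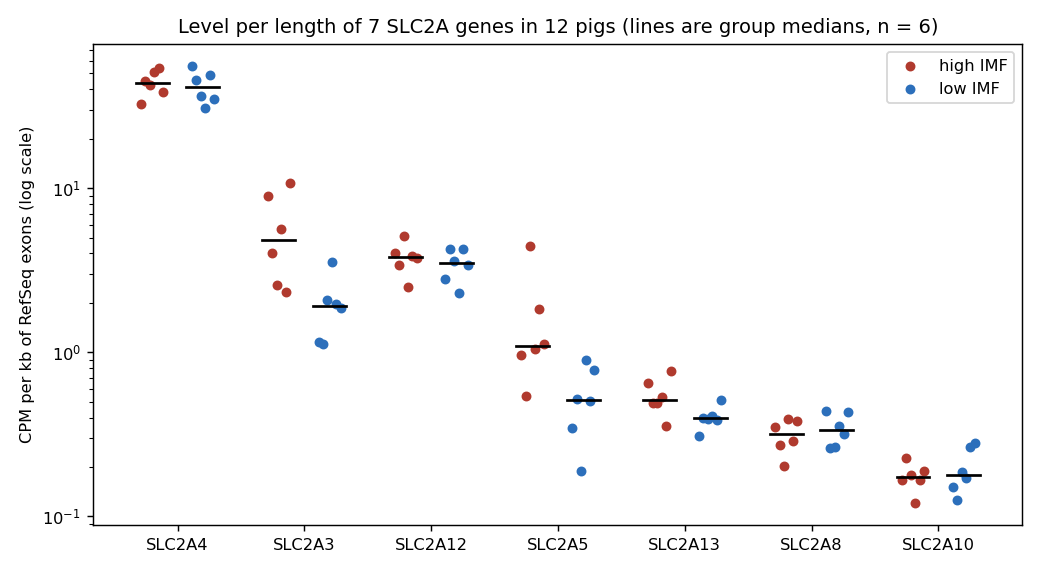
Level per length, as CPM per kilobase of RefSeq exons on a log axis, of the 7 tested SLC2A genes in each of the 12 pigs, coloured by IMF group, with a line at each group median. SLC2A4 lies far above the rest, and SLC2A3 and SLC2A5 are the genes whose high IMF pigs spread upward.

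Of the summed level per kilobase of the 8 counted members, SLC2A4 made up 77.8% ± 7.64 (SD, n = 6) in the high and 85.4% ± 3.94 in the low IMF group. SLC2A3 made up 10.5% ± 6.94 against 4.34% ± 2.69, and SLC2A5 2.96% ± 2.55 against 1.18% ± 0.751. SLC2A12 held a like share in both groups, 6.83% ± 1.83 and 7.11% ± 1.49. The sum itself was 56.1 ± 5.45 CPM per kilobase in the high and 48.9 ± 8.90 in the low IMF group, ranges that overlapped.

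The comparison of low with high IMF asks whether sugar transporter transcripts differ with the fat content of the muscle. No member passed the quasi-likelihood test of edgeR, adjusted by Benjamini-Hochberg over all genes, and neither did any of the 14262 genes (0% called at an adjusted p of 0.05 with a log2FC of 0.58 in size). At an unadjusted p of 0.05, 3 of the 7 tested members (SLC2A3, SLC2A5 and SLC2A13) were past the threshold, all with higher means in the high IMF group, beside 10.4% of all genes (1486 genes) with 5.04% higher in high IMF and 5.38% higher in low IMF. The groups of pigs overlapped for each of the 7 members, where 0.659% of all genes had groups that did not overlap and 0.4% did so with high IMF above low IMF. The log2FC, low over high IMF, was below 0 for 5 of 7 members and for 51.6% of all genes, with a median of -0.13 against -0.01 over all genes. DESeq2's Wald test called 1 member, SLC2A3, among 64 of 20341 genes (0.315%). The study names SLC2A3 and SLC2A5 as differing from these same pigs, so that their counts here are no independent evidence.

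SLC2A3 (ENSSSCG00000022925) ranged in high IMF pigs from 11.0 to 50.9 CPM (median 22.8) and in low IMF pigs from 5.30 to 16.8 CPM (median 9.05). Pigs 6 and 1 were highest at 50.9 and 42.5 CPM, and pigs 8 and 7 lowest at 5.30 and 5.43. The groups overlapped: 4 of 6 high IMF pigs lay above every low IMF pig, and 5 of 6 low IMF pigs lay below every high IMF pig. The means were 27.0 ± 16.5 and 9.26 ± 4.20 CPM (SD, n = 6), from 1400 to 6657 counts per pig in the high and 589 to 2747 in the low IMF pigs. The log2FC was -1.54 (SE 0.40, 95% interval -2.41 to -0.68), a fitted level 2.92-fold higher in high IMF (interval 1.60 to 5.30). By edgeR's quasi-likelihood test the unadjusted p was 0.00186, which ranked 75 among all genes, and the adjusted p was 0.342. The exact permutation test of its log2 CPM, two-sided, gave p = 0.0130. The Wald test of DESeq2 put its adjusted p at 0.0144, which moved past 0.05 without pig 6 (0.0900), without pig 7 (0.0507) or without pig 8 (0.0605). In the 6 pigs whose Y counts match their label, 4 high and 2 low, the log2FC was -1.93.

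SLC2A5 (ENSSSCG00000039651) was a scarcer transcript, at 1.39 to 11.4 CPM (median 2.81) in the high IMF pigs and 0.485 to 2.30 CPM (median 1.32) in the low IMF pigs. Pig 3 stood apart at 11.4 CPM (1656 counts), the next being pig 5 at 4.73 CPM, and pig 9 was lowest at 0.485 CPM (74 counts). Of the high IMF pigs, 5 of 6 lay above every low IMF pig, the exception being pig 2 at 1.39 CPM. The means were 4.27 ± 3.66 and 1.39 ± 0.678 CPM (SD, n = 6). The log2FC was -1.62 (SE 0.49, 95% interval -2.67 to -0.57), a fitted level 3.08-fold higher in high IMF (interval 1.49 to 6.37). The quasi-likelihood p was 0.00525 unadjusted, rank 174, and 0.419 adjusted, while the exact permutation test gave p = 0.0130. DESeq2's Wald test left it outside the threshold at an adjusted p of 0.0521, and put it inside at 0.0451 when run on the 14262 genes alone. Pig 3 carried much of the size: without it the log2FC was -1.03 and the Wald adjusted p 0.302. Pigs 3 and 5, the highest in SLC2A5, are the 2 high IMF pigs whose Y counts go against their label, and in the 6 pigs without such a mismatch the log2FC was -0.51 and did not pass edgeR's test even before adjustment.

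**Figure D2:**
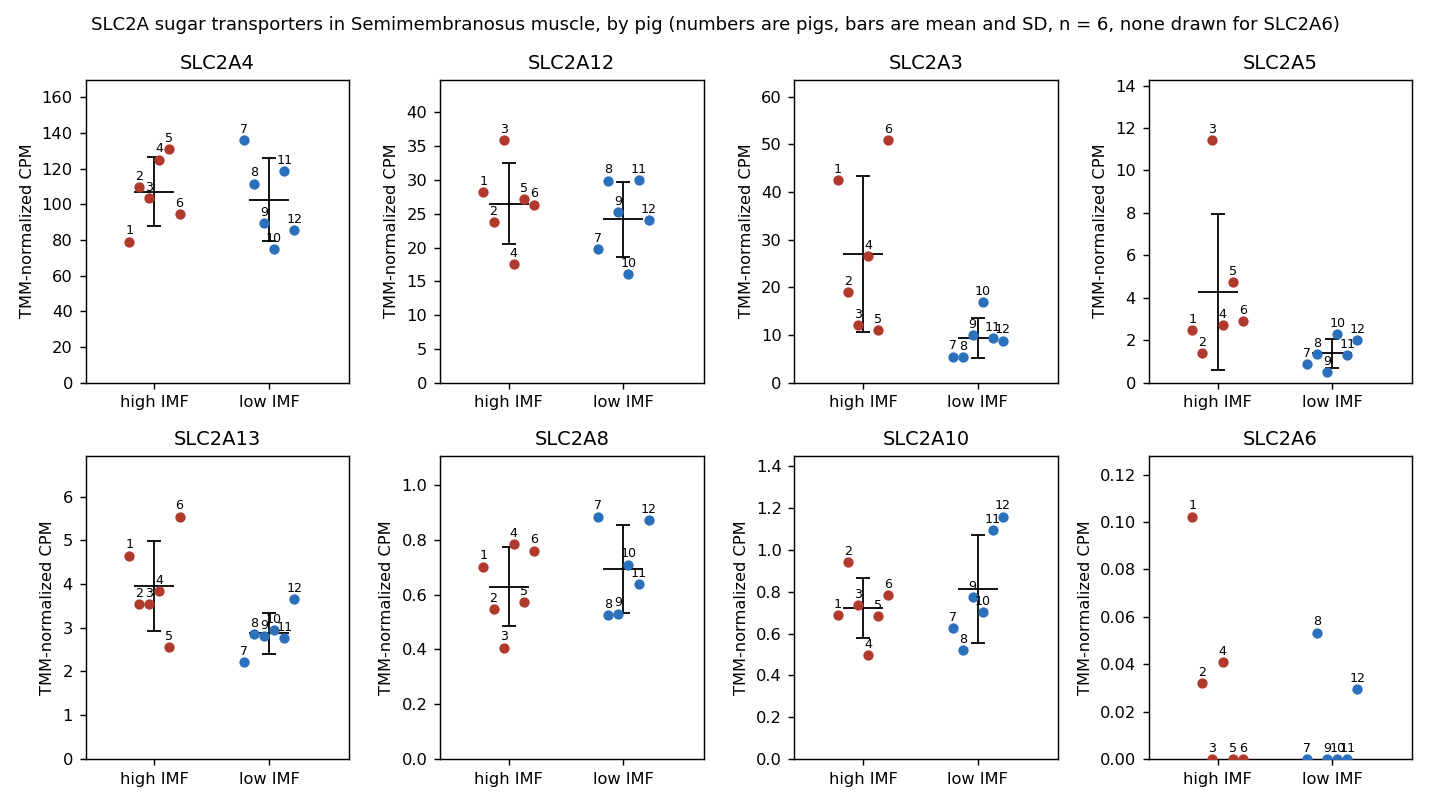
TMM-normalized CPM of the 8 counted SLC2A genes in each pig, with numbers naming the pigs, bars giving the mean and SD of each group of 6 (none for SLC2A6), and each axis starting at 0. For SLC2A3, pigs 1 and 6 reach 42.5 and 50.9 CPM, for SLC2A5 pig 3 reaches 11.4 CPM, and SLC2A4 covers much the same range in both groups.

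SLC2A4 (ENSSSCG00000023915) was the steadiest of the genes. It ranged from 79.1 to 131 CPM (median 107) in the high IMF pigs and from 75.0 to 136 CPM (median 101) in the low IMF pigs, so that the low IMF range enclosed the other. Its highest and lowest pigs differed 1.81-fold, where those of SLC2A3 differed 9.60-fold and those of SLC2A5 23.6-fold. The means were 107 ± 19.3 and 103 ± 23.2 CPM, and the log2FC was -0.06 (SE 0.16, 95% interval -0.41 to 0.28, edgeR adjusted p = 0.923). The interval holds no difference as large as the threshold of 0.58 in either direction. The sign of so small a value was not stable, as it turned positive without pig 5, without pig 10 or without the pigs of mismatched sex.

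SLC2A12 (ENSSSCG00000004172), the other insulin-responsive member, had 17.5 to 35.9 CPM (median 26.8) in the high IMF pigs and 16.1 to 30.0 CPM (median 24.6) in the low IMF pigs. Its log2FC was -0.13 (SE 0.18, 95% interval -0.52 to 0.25, edgeR adjusted p = 0.831), an interval that again lies inside the threshold. In the 6 pigs whose Y counts match their label its sign turned, with a log2FC of 0.18. It overlaps TBPL1 on the opposite strand at chr1:29835964-29901996. Because the strand setting of the counting is not known, some of its counts may belong to that gene.

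SLC2A13 (ENSSSCG00000000783) had 2.56 to 5.54 CPM (median 3.69) in the high IMF pigs and 2.21 to 3.65 CPM (median 2.83) in the low IMF pigs. As for SLC2A3, pigs 6 and 1 were highest, at 5.54 and 4.65 CPM, and 3 of 6 high IMF pigs lay above every low IMF pig. Its log2FC was -0.46 (SE 0.18, 95% interval -0.84 to -0.08), with an unadjusted p of 0.0222 and an adjusted p of 0.441 by edgeR's quasi-likelihood test. The exact permutation test gave p = 0.0433, and DESeq2's Wald adjusted p was 0.277.

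The low-abundance members SLC2A8 and SLC2A10 both had a log2FC above 0, neither past the test. SLC2A8 (ENSSSCG00000005610) had 0.407 to 0.785 CPM in the high and 0.526 to 0.885 CPM in the low IMF group, with a log2FC of 0.14 (SE 0.23, 95% interval -0.35 to 0.63, edgeR adjusted p = 0.868). SLC2A10 (ENSSSCG00000007451) had 0.498 to 0.943 CPM in the high and 0.520 to 1.16 CPM in the low IMF group, with a log2FC of 0.17 (SE 0.24, 95% interval -0.34 to 0.68, edgeR adjusted p = 0.838). These rest on 59 to 149 counts per pig for SLC2A8 and 68 to 198 for SLC2A10, and both intervals hold differences as large as 0.58 toward low IMF. In the 6 pigs whose Y counts match their label the log2FC of SLC2A10 was 0.64 (SE 0.33), which did not pass edgeR's test before adjustment. SLC2A6 (ENSSSCG00000024166), a lysosomal GLUT of immune cells, had 40 counts in all, at most 16 in a pig, and 0 in 7 pigs. A count of 0 allows up to 3 counts, which is 0.0173 to 0.0277 CPM depending on the library. This limit covers counting error only and takes each count as an independent read. SLC2A6 also overlaps ADAMTS13 and CACFD1 on the opposite strand. Because the strand setting is not known, the limit does not cover reads misassigned or left out there.

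**Figure D3:**
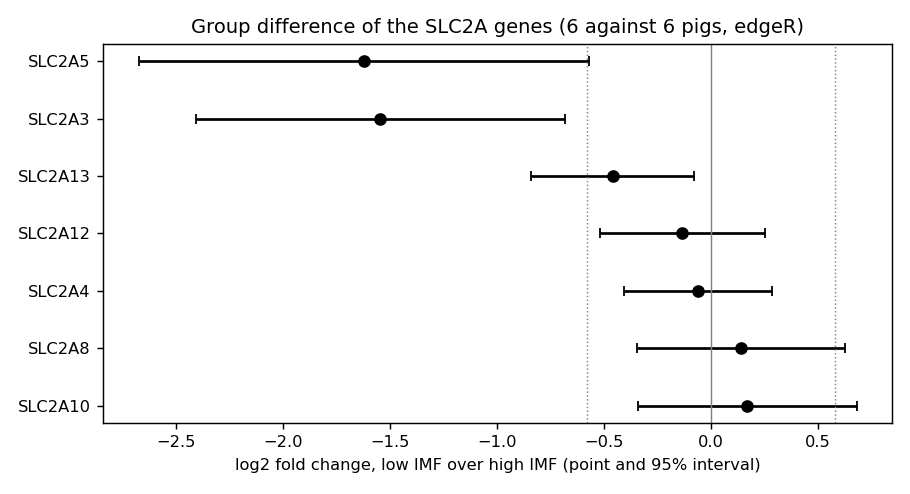
Log2 fold change, low over high IMF, of the 7 tested SLC2A genes with 95% intervals from edgeR's quasi-likelihood fit (6 against 6 pigs). The solid line marks 0 and the dotted lines mark 0.58 in each direction. SLC2A5 at -1.62 and SLC2A3 at -1.54 lie apart from the other 5 genes, which lie between -0.46 and 0.17.

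Within a pig, the counts of SLC2A3 and SLC2A5 were next set against those of SLC2A4, a ratio that does not depend on library size. SLC2A3 counts were 8.40% to 53.9% of SLC2A4 counts in high IMF pigs (median 19.3%) and 4.00% to 22.4% in low IMF pigs (median 9.08%). Pigs 6 and 1 again led. The mean log2 ratio was higher in the high IMF group by 1.35, at an exact permutation p of 0.0498, two-sided, where 924 arrangements allow no p under 0.00216. SLC2A5 counts were 1.27% to 11.0% of SLC2A4 counts in high IMF pigs (median 3.11%) and 0.542% to 3.07% in low IMF pigs (median 1.15%). Its mean log2 ratio was higher by 1.38 in the high IMF group (exact permutation p = 0.0346). Both tests lay close to the threshold: of the 12 fits that left out 1 pig, 3 stayed at or under 0.05 for SLC2A3 and 4 for SLC2A5. The differences of mean log2 ratio in these fits ran from 1.09 (without pig 6) to 1.63 for SLC2A3 and from 1.03 (without pig 3) to 1.65 for SLC2A5. In the 6 pigs whose Y counts match their label the difference was 1.84 for SLC2A3 and 0.502 for SLC2A5. The ratios are of counts and not per length, so that they compare pigs and not the genes. They use the same SLC2A3 and SLC2A5 counts as the group comparisons above and are no separate evidence. The exact tests between groups, of the 7 tested members and the 2 ratios, were 9 in all, and their p-values are unadjusted.

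**Figure D4:**
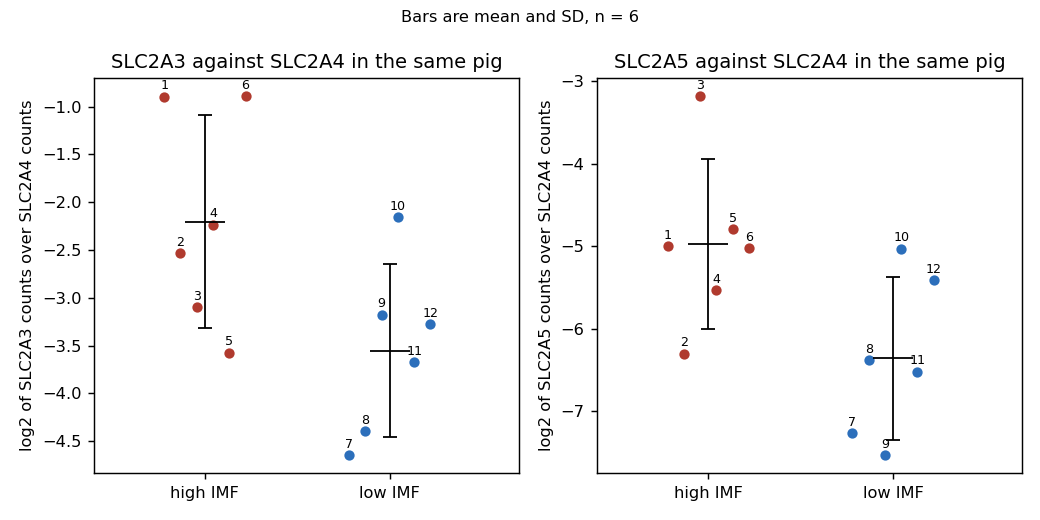
Log2 of SLC2A3 counts over SLC2A4 counts (left) and of SLC2A5 counts over SLC2A4 counts (right) in each pig, with numbers naming the pigs and bars giving the mean and SD of each group of 6. The group means are apart by 1.35 and 1.38, and in both panels the groups overlap.

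In the high IMF group pigs 6 and 1 were highest in SLC2A3, and pigs 3 and 5 in SLC2A5. In the low IMF group pig 10 was highest in both, at 16.8 and 2.30 CPM. Within the high IMF group the log2 CPM of SLC2A3 and SLC2A5 had Pearson's r of -0.530 (exact permutation p = 0.297) and Spearman's rho of -0.429 (exact permutation p = 0.419). Within the low IMF group r was 0.342 (exact permutation p = 0.508) and rho 0.143 (exact permutation p = 0.803). Adjusted over the 2 groups, the p-values were 0.508 for both r and 0.803 for both rho. Leaving out the 2 pigs farthest from the median of SLC2A3 gave r = -0.588 and r = -0.0036. With the mean of each group taken off, SLC2A13 was the member most like SLC2A3 over the 12 pigs (r = 0.773), and SLC2A4 was the least (r = -0.702). SLC2A4 and SLC2A13 had r = -0.698, and SLC2A8 and SLC2A12 r = -0.624. These are descriptions over 12 pigs whose values share library and normalization.

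Among all tested genes with a symbol, those most like each transporter within groups were found by the same group-centred r over the 12 pigs. For SLC2A3 they were HYOU1, a chaperone of the endoplasmic reticulum (0.974), TICAM1, an adaptor of Toll-like receptors (0.899), SLC30A2, a zinc transporter (0.872), S100A10 (0.865) and PRSS53 (0.854). HYOU1 kept r = 0.965 without pig 6, yet its group means were 13.2 CPM in the high and 16.5 CPM in the low IMF group (log2FC 0.33, SE 0.18), the opposite order from SLC2A3. For SLC2A5 they were EPB42, a protein of the red cell membrane skeleton (0.935), NIT2 (0.924), TMEM59 (0.887), GIN1 (0.870) and HAUS1 (0.867). Without pig 3 the value was 0.888 for NIT2 and 0.793 for TMEM59. For SLC2A4 they were PMP2, a fatty acid binding protein of myelin (0.902), ICA1 (0.876), THNSL2 (0.869), ID1 (0.863) and VIPAS39 (0.861). Each is the top of a ranking over all genes with a symbol and is given as a description.

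The genes that store, move and insert GLUT4 were compared as a list of 28, of which 25 were tested. At an unadjusted p of 0.05, 4 of the 25 had higher means in low IMF and 0 in high IMF, beside 5.38% and 5.04% of all genes, and the median log2FC was 0.11 against -0.01 over all genes. AKT2, the insulin-responsive kinase that triggers GLUT4 vesicle movement, had 62.4 to 70.9 CPM in the high and 70.7 to 92.1 CPM in low IMF pigs. Its log2FC was 0.32 (SE 0.09, edgeR adjusted p = 0.367), and its Wald adjusted p was 0.0367 at a size under the threshold of 0.58. The others were the insulin receptor gene INSR (log2FC 0.45), PDPK1, the kinase that activates AKT (0.27), and PRKAG3, the muscle subunit of AMP-activated kinase (0.38). TBC1D4, the AKT substrate that holds GLUT4 vesicles back, had 110 ± 34.5 and 118 ± 36.7 CPM. The adjusted p was above 0.05 for each of the 25 genes by edgeR.

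Regulators of the SLC2A4 gene were tested as a list of 12, of which 4 had higher means in low IMF at an unadjusted p of 0.05 and 0 in high IMF, beside 5.38% and 5.04% of all genes. The median log2FC of the list was 0.18, against -0.01 over all genes. The coactivator PPARGC1A had 55.8 to 144 CPM in the high and 70.8 to 392 CPM in the low IMF group, with a log2FC of 0.92 (SE 0.35, edgeR adjusted p = 0.434). The muscle transcription factors MEF2D and MEF2A had log2FC of 0.44 and 0.50, and KLF15, a transcription factor that raises SLC2A4, 0.66. The summed level of the 12 regulators was 656 to 844 CPM in the high and 940 to 1083 CPM in the low IMF group, given as a description with no test. Each regulator on its own had groups that overlapped, where 0.659% of all genes had groups that did not. The sum weights abundant genes most, MEF2C and MEF2A having the highest means, and does not measure the regulation of SLC2A4. SLC2A4 itself, as given above, had a log2FC of -0.06.

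Enzymes and regulators that act on hexoses after entry made a list of 18, of which 17 were tested. At an unadjusted p of 0.05 by edgeR, 1 gene had a higher mean in high and 1 in low IMF, beside 5.04% and 5.38% of all genes. The median log2FC of the list was -0.08 against -0.01 over all genes. GALM, a mutarotase that interconverts forms of galactose and glucose, had a log2FC of -0.34 (SE 0.14), and MLXIP, a sugar-sensing transcription factor that the study lists from these pigs, 0.70 (SE 0.20). TXNIP, which holds glucose uptake back, had its highest level in pig 3 at 2184 CPM, the pig highest in SLC2A5, against 537 to 1149 CPM in the other high IMF pigs and 598 to 995 CPM in the low IMF pigs. Its relative ARRDC4 was also highest in pig 3, at 84.7 CPM. KHK, the kinase that commits fructose to metabolism, had 1.61 ± 0.559 CPM in the high and 1.45 ± 0.329 CPM in low IMF pigs, a log2FC of -0.15 (SE 0.24). Of the other sugar carriers, 7 were tested and 0 were past an unadjusted p of 0.05 by edgeR, with a median log2FC of 0.04. The liver and islet transporter gene SLC2A2 had 114 counts in all, SLC2A7 32 and SLC2A9 12, and SLC5A11 was listed at 0 in each of the 12 pigs.

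In whole muscle, fewer cells of a type and less RNA per cell cannot be told apart, and white blood cells, macrophages and platelets also carry GLUT3. Pig 6, the highest in SLC2A3, was also highest in the summed erythroid markers, at 633 CPM against 41.3 to 122 CPM in the other 11 pigs. It was highest in the neutrophil markers, at 6.65 CPM against 0.172 to 1.44 CPM, and in the macrophage markers, at 199 CPM against 85.6 to 168 CPM. Most of its neutrophil sum was 1 gene, CSF3R at 5.74 CPM, beside S100A12 at 0.571 CPM and S100A8 at 0.309 CPM. The platelet sum of pig 6 was highest too, at 0.357 CPM, with pig 5 next at 0.338 CPM. That sum held only 2 counted genes at very low levels, and it led through PPBP (0.238 CPM in pig 6), which was not tested. GP9, the tested gene, had 0.119 CPM in pig 6 and was highest in pig 5 at 0.173 CPM. Pig 1, next in SLC2A3, had 85.0 CPM of erythroid, 0.843 CPM of neutrophil and 139 CPM of macrophage markers, values inside the range of the low IMF pigs. The neutrophil gene MPO was listed at 0 in each pig. Without pig 6 the log2FC of SLC2A3 was -1.26, in the same direction. Of 10 macrophage markers tested, 2 had higher means in high IMF at an unadjusted p of 0.05, ITGAM (log2FC -1.06) and AIF1 (-0.46), and 0 in low IMF, beside 5.04% and 5.38% of all genes. The part of these cells in the SLC2A3 result was not tested.

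**Figure D5:**
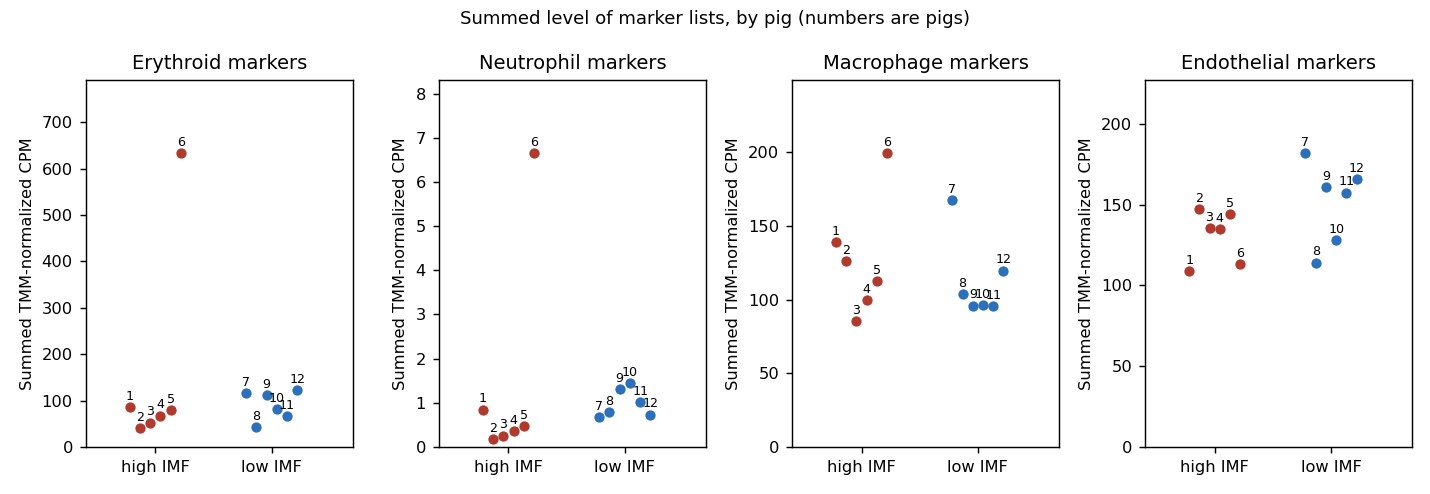
Summed TMM-normalized CPM of 4 marker lists in each pig, with numbers naming the pigs and each axis starting at 0. Pig 6 lies above all others for erythroid (633 CPM), neutrophil (6.65 CPM) and macrophage markers (199 CPM) and near the bottom for endothelial markers (113 CPM).

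Pig 3, the highest in SLC2A5, did not lead any of these blood lists, with 52.4 CPM of erythroid, 0.255 CPM of neutrophil and 85.6 CPM of macrophage markers, the last being the lowest of the 12 pigs. At an unadjusted p of 0.05 by edgeR, 5.04% of all genes had higher means in high and 5.38% in low IMF. Beside these shares, endothelial markers had 1 of 7 tested genes past it, CDH5, with a higher mean in low IMF (log2FC 0.55). EGFL7 was listed at 0. Adipocyte markers had 0 of 7, with sums of 282 to 394 CPM in the high and 152 to 568 CPM in the low IMF group. Platelet markers had 0 of 1, neutrophil markers 0 of 3, erythroid markers 0 of 4, Schwann cell markers 0 of 3 and slow fibre markers 0 of 6 by the same edgeR test. Stromal markers had 1 of 7, PDGFRA (log2FC -0.42). Of these 7 stromal genes only 3 had a log2FC below 0, and the list median was 0.03. Fast fibre markers had 1 of 4, ATP2A1, the calcium pump of fast fibres (log2FC 0.46).

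SLC2A3 is known as a hypoxia-induced gene, and AP-1 letters stand upstream of both SLC2A3 and SLC2A5, so that hypoxia genes and immediate early genes were read as well. Of 8 hypoxia-induced genes tested, 0 were past an unadjusted p of 0.05 by edgeR, and their sums were 134 to 239 CPM in the high and 149 to 215 CPM in the low IMF group. Pig 6 had the highest of these sums and pig 1 the lowest. Of 12 immediate early genes tested, 5 had higher means in high IMF at an unadjusted p of 0.05 (EGR2, IER2, EGR3, EGR1 and FOS) and 1 in low IMF (NR4A3), beside 5.04% and 5.38% of all genes, with a median log2FC of -0.41 against -0.01 over all genes. Pig 6 had the highest sum of these genes as well, 2029 CPM, while pig 1, next in SLC2A3, had 1115 CPM and ranked 8 of 12. FOS, a subunit of AP-1, had 465 ± 187 and 204 ± 171 CPM (log2FC -1.19, SE 0.51, edgeR adjusted p = 0.452), and JUNB was listed at 0. Whether these genes have a part in the level of SLC2A3 or SLC2A5 was not tested.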

How the data were processed

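Polyadenylated RNA of Semimembranosus muscle from 12 pigs was sequenced from stranded libraries. The authors used Trimmomatic for trimming, HISAT2 for alignment to pig genome 11.1, StringTie, and HTSeq 0.6.1 for counting. They deposited counts per Ensembl gene and pig, whole numbers that were not normalized. The annotation release, strand option and treatment of reads with several alignments are not given in the sources used here, so overlapping genes and near-identical copies are uncertain. Nothing says more of replication than 1 sample per pig.

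Of 25880 genes, 5539 had no count. Symbols came from an Ensembl name table (14857 genes) and, for 10 further identifiers including that of SLC2A3, from the study's gene list. Positions, exon lengths and promoters are those of RefSeq on Sscrofa11.1, matched by symbol. Genes kept by filterByExpr were normalized by TMM and compared in edgeR 4.0.16 under R 4.3.3 by the quasi-likelihood test, with no term but the group and Benjamini-Hochberg adjustment over 14262 genes. A gene was called where its adjusted p did not exceed 0.05 and its log2FC (low over high IMF) reached 0.58 in either direction. Log2 CPM used a prior count of 2, and exact permutation tests were two-sided over 924 arrangements. DESeq2's Wald test (DESeq2 1.42.0), limma-voom (limma 3.58.1), other normalizations and filters, labelled sex or age as a covariate, Y chromosome counts and each pig left out were alternatives. The fits were tested on simulated data. Libraries of a group differed by more than sampling noise, and each counted as 1 replicate.

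The members and gene lists were chosen with earlier results of these data known. Named genes are the members, for SLC2A3, SLC2A5 and SLC2A4 the 5 genes most like each, and, of each list, at most 6 genes with the smallest p and those the study lists. KHK, TBC1D4 and some others below these ranks, and genes or carriers given by counts alone, were named after their values were seen.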

Additional observations from a re-analysis of the deposited data

Results flagged for a closer look

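SLC2A5 in pig 3 of the high IMF group, at 11.4 CPM, lay far from the other pigs of its group. The gap to the next pig, at 4.73 CPM, was 0.667 of the whole range of the 6 pigs, above Dixon's limit for 6 values. That limit assumes normally distributed values and was applied to CPM, not to log2 CPM, so that the flag depends on the scale. The highest and lowest pigs of 14 groups (7 genes in 2 groups) were examined, and chance marks about 1 group in 20.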

How the results depend on the processing

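No member was called by edgeR under any other normalization, filter or covariate, nor by limma-voom. DESeq2's Wald test called 57 genes and 2 members on the genes tested by edgeR, 64 genes and 1 member on all genes with a count, and 65 genes and 1 member with its filtering set for 0.05, an alternative chosen after seeing the data. Leaving out 1 pig gave 0 to 1 genes (1 without pig 5 and 1 without pig 10) and 0 members by edgeR, and 42 (without pig 6) to 187 (without pig 2) genes and 0 to 2 members by the Wald test. The log2FC of SLC2A3 ran from -1.80 to -1.26 and that of SLC2A5 from -1.83 to -1.03 by edgeR without 1 pig. The log2FC of SLC2A4 turned positive without pig 5 (0.0037 by edgeR, 0.0083 by the Wald test), without pig 10 (0.0134 and 0.0192, against -0.154 without pig 7 by the Wald test) and in the pigs whose Y counts fit the label (0.0064), where that of SLC2A12 was 0.18 and that of SLC2A10 0.64. For the log2 ratio of SLC2A3 to SLC2A4, the high minus low IMF difference was 1.84 in those pigs (exact p = 0.133, 15 arrangements). That difference was 1.30 with the summed other members as denominator (exact p = 0.0541), 1.09 between group medians (exact p = 0.0909) and 1.09 to 1.63 without 1 pig. For the log2 ratio of SLC2A5 to SLC2A4, the high minus low IMF difference was 0.502 in those pigs (exact p = 0.533). That difference was 1.20 with the summed other members as denominator (exact p = 0.0671), 1.44 between group medians (exact p = 0.0130) and 1.03 to 1.65 without 1 pig. Causes of these shifts were not tested. Depth limits SLC2A6, SLC2A8 and SLC2A10 most. No paired analysis was run, because the labels pair no pig of one group with a pig of the other. The study ran libraries in pairs per lane and slaughtered the pigs on several days. Which pigs shared a lane or a day is not given in the sources used here, so neither was modelled.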
